A study of Homo sapiens with 4 samples.

Results

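The NADPH oxidase genes examined here are 9 genes: the oxidases NOX1, NOX4, DUOX1 and DUOX2, the membrane subunit CYBA, the cytosolic subunits NOXO1 and NOXA1, and the maturation factors DUOXA1 and DUOXA2. They were chosen by gene symbol, with earlier results of these data known. Each is represented by the transcript model with the most reads over the 4 libraries, so that 9 of 42067 gene names and 9 of their 24 transcript models entered the comparison. RNA came from Huh7, an established human hepatocellular carcinoma cell line, cultured in serum-containing medium that was changed daily. The mock group received medium without added H2O2 and the treated group received 300 µM hydrogen peroxide (H2O2), both for 4 days. Each group has 2 libraries, and the titles mark 1 library per group with H and 1 with Q, letters that the labels do not explain. Nothing in the labels says that the libraries came from separate cultures, so p-values measure only the spread between these libraries, which may be technical.

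NADPH oxidases are membrane enzymes that pass electrons from NADPH across a membrane to oxygen and so make superoxide or H2O2. NOX1, best known from the colon epithelium, needs the membrane subunit encoded by CYBA, the organiser NOXO1, the activator NOXA1 and the small GTPase RAC1, whereas NOX4 needs CYBA alone and releases mainly H2O2. The dual oxidases DUOX1 and DUOX2 carry an added peroxidase-like domain and calcium-binding sites, and leave the endoplasmic reticulum only with their maturation factors DUOXA1 and DUOXA2. DUOX2 supplies the H2O2 for thyroid hormone synthesis and is also found at mucosal surfaces.

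The upstream sequences show how the members are arranged, and 4 of them are printed because the results below turn on their genes. DUOX2 and DUOXA2 start back to back on opposite strands with 153 bases between their starts, and DUOXA1 and DUOX1 likewise with 114 bases. The sequences are from RefSeq (GRCh38.p14) and run 5′ to 3′. Both intervals are shown on the plus strand, at chr15:45114173-45114325 and chr15:45129880-45129993. The 250 bases before the starts of NOX1 (chrX:100874360-100874609) and CYBA (chr16:88651054-88651303) are shown on the minus strand, which is that of the gene. Capitals mark matches on either strand to TATAAA (the TATA box core), GGGCGG (the GC box) or GATAA (the GATA core).
DUOX2-DUOXA2 interval: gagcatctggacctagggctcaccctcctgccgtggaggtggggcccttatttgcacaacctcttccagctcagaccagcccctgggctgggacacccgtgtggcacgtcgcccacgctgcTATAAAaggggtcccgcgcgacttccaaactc
DUOXA1-DUOX1 interval: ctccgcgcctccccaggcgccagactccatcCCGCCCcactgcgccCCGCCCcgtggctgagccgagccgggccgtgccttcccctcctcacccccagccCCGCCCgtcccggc
NOX1 upstream: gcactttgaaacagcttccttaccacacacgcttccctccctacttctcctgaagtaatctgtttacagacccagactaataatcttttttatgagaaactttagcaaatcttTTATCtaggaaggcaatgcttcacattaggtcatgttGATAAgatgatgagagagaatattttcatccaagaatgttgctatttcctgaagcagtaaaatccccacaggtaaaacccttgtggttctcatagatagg
CYBA upstream: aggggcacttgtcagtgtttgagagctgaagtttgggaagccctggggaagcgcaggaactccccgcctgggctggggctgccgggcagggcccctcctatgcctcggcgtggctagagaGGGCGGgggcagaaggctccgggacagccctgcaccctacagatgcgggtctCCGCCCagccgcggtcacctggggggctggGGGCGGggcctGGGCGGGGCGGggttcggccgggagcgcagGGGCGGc

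The members' upstream windows, each of 300 bases, varied in base composition. The NOX1 window had a GC content of 40.3% and 1 CpG dinucleotide, against 72.7% and 23 for CYBA, and against medians of 58.7% and 14 over 35116 windows of all genes. TATAAA stood in the windows of DUOX2 and DUOXA2, where it is the same match in their shared interval, and in 11.5% of all windows. GGGCGG stood in 5 member windows (NOX4, DUOX1, DUOXA1, CYBA and NOXA1) and in 45.0% of all windows, and 2 of the 6 matches before CYBA overlap by 1 base. The DUOX1 and DUOXA1 windows hold the same 3 matches, in their shared interval. GATAA stood in the windows of NOX1 and NOXA1 and in 22.7% of all. The AP-1 core TGANTCA and the antioxidant response element core TGACNNNGC were found in 0 of the 9 member windows, against 7.7% and 13.3% of all windows. These are letter matches and describe the sequence alone.

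The libraries held 78126878 to 88409567 mapped read mates. Of all gene names, 27702 had at least 10 reads in at least 2 libraries and were tested, and all 9 members were among them. The labelled cell type was checked with hepatocyte markers, which were all tested and summed under mock to 14340 CPM (reads scaled to a common library size) in H and 5624 CPM in Q, and under H2O2 to 18550 CPM in H and 10900 CPM in Q. Of the 9 myeloid phagocyte markers 7 were tested. LYZ, at 391 to 597 CPM, made up most of their sum of 402 to 607 CPM. CD14 lay at 3.89 to 6.95 CPM and ITGAM at 1.415 to 4.58 CPM. Lower levels were found for AIF1 (0.401 to 1.085 CPM), CSF1R (0.0881 to 0.982 CPM), PTPRC (0.0517 to 0.272 CPM) and CYBB (0.0783 to 0.190 CPM). SPI1 and MPO had too few reads. Of the 7 endothelial and stromal markers 5 were tested, with a sum of 18.3 to 27.8 CPM, most of it COL1A1. The part of either marker group in the members' values was not tested.

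All 9 members had lower estimates in the H2O2 libraries than in mock, with a median log2 fold change of −0.73, where all genes tested had a median of −0.03 and 52.8% of them lay below 0. The members were chosen with earlier results of these data known, so this count and median are descriptions, with no test. Both H2O2 libraries lay below both mock libraries for 6 members (NOX1, NOX4, DUOX2, CYBA, DUOXA1 and DUOXA2), as they did for 21.3% of all genes. They lay above both mock libraries for 0 members and for 18.1% of all genes. No member passed the test over all genes, the quasi-likelihood test of edgeR with Benjamini-Hochberg adjustment, in which 0% of genes passed at 5%. DUOX2 and NOX1 had an unadjusted p under 5% with a lower level, as did 3.75% of all genes. These bulk libraries cannot tell fewer cells that carry a transcript from less of it per cell. Levels are CPM after TMM scaling of library sizes, given as mean ± SD with n = 2, and a fold change is the log2 ratio of H2O2 to mock.

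**Figure D1:**
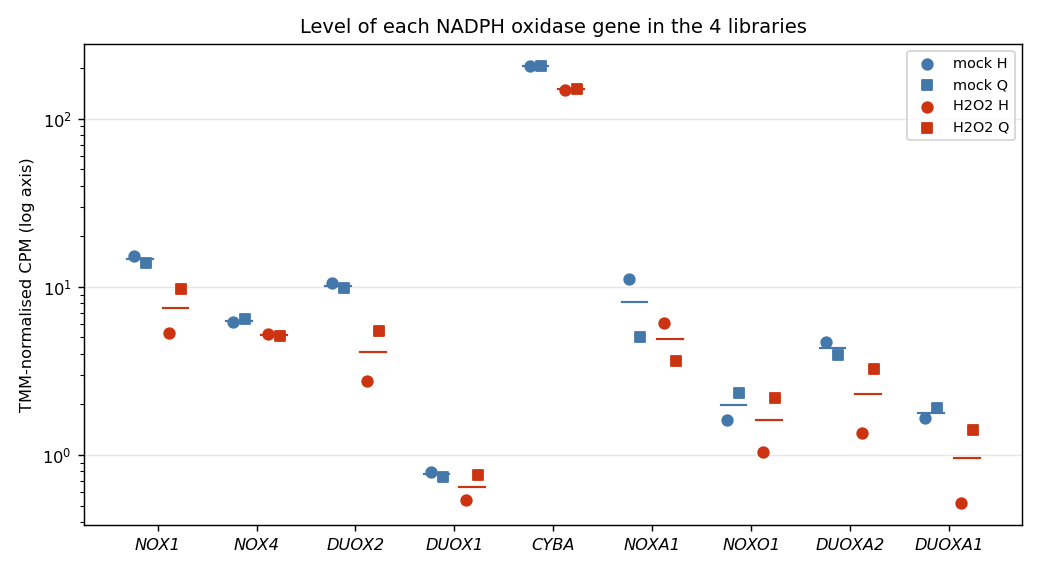
Level of each of the 9 genes in the 4 libraries, in TMM-normalised CPM on a log axis; circles are libraries H, squares libraries Q, and short lines are group means of n = 2. CYBA sits near 205 CPM in mock and 149 CPM in H2O2 with both libraries of a group together, while NOX1, DUOX2, DUOXA2 and DUOXA1 have their lowest point in H2O2 library H.

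Among the oxidases, DUOX2 had the largest difference. DUOX2 measured 10.5 CPM (H) and 9.87 CPM (Q) under mock treatment, and 2.76 CPM (H) and 5.48 CPM (Q) under H2O2. Both H2O2 libraries were below both mock libraries, and H2O2 library H was the lowest. The group means were 10.2 ± 0.434 and 4.12 ± 1.93 CPM, a log2 fold change of −1.30 (SE 0.38, 95% interval −2.26 to −0.34), which edgeR gave an unadjusted p of 0.017 and an adjusted p of 0.721. The estimate put DUOX2 at 40.5% of its mock level, and 2.62% of all genes tested had a lower fold change. Without H2O2 library H its log2 fold change was −0.89.

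NOX1, the oxidase with the most transcript per length in mock, followed the same order of libraries. It measured 15.2 CPM (H) and 13.9 CPM (Q) under mock treatment, and 5.29 CPM (H) and 9.74 CPM (Q) under H2O2. The groups did not overlap, and the H2O2 libraries lay further apart than the mock libraries did. The log2 fold change was −0.95 (SE 0.34, interval −1.83 to −0.08; edgeR, unadjusted p = 0.037, adjusted p = 0.721), and 5.62% of all genes tested lay below it. Without H2O2 library H it was −0.58.

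NOX4, which needs no cytosolic subunits, varied little in CPM between libraries. It measured 6.18 (H) and 6.43 CPM (Q) under mock, against 5.26 (H) and 5.08 CPM (Q) under H2O2. The groups did not overlap, but the distance between them was small, with a log2 fold change of −0.29 (SE 0.22, interval −0.84 to 0.27; edgeR, adjusted p = 0.794). The deposited FPKM, a level scaled by length and depth, varied more. For NOX4 it was 8.87 (H) and 8.34 (Q) under mock, against 7.74 (H) and 4.95 (Q) under H2O2. DUOX1, the member with the lowest CPM per kilobase, measured 0.795 (H) and 0.743 CPM (Q) under mock, against 0.539 (H) and 0.761 CPM (Q) under H2O2. Its groups overlapped, since H2O2 library Q lay between the mock libraries. DUOX1 rested on 77, 90, 55 and 91 reads (mock H and Q, then H2O2 H and Q). The exact Poisson 95% intervals of those counts, which cover counting error only, ran from 60.8 to 96.2, 72.4 to 110.6, 41.4 to 71.6 and 73.3 to 111.7 reads. Since the deposited counts summed above the mapped mates, these intervals may be too narrow even for that error. The log2 fold change of −0.24 had an interval of −1.12 to 0.64 (edgeR, adjusted p = 0.877), and it was −0.01 without H2O2 library H.

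**Figure D2:**
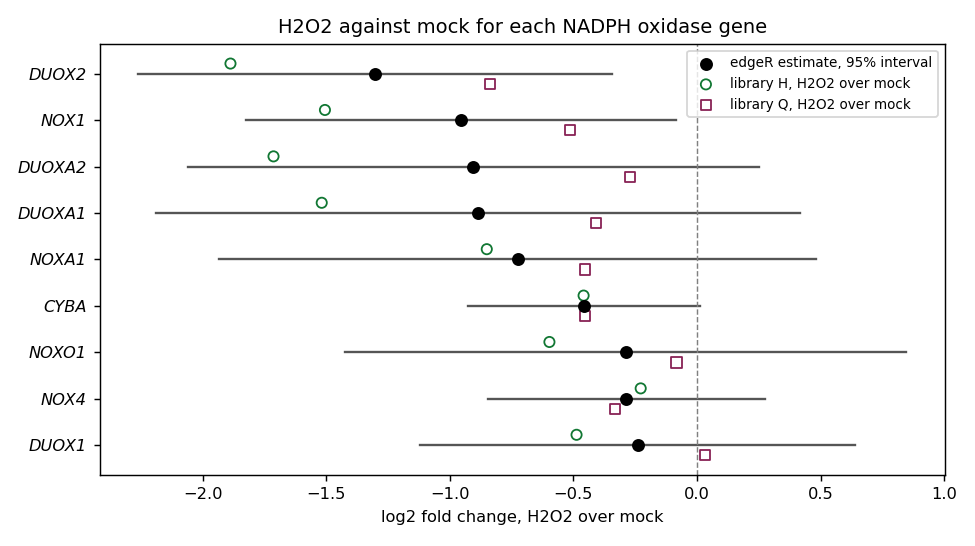
Log2 fold change of H2O2 over mock for each gene. Black points are edgeR estimates with 95% intervals. Open circles are the ratio of the libraries H and open squares that of the libraries Q, both with 0.1 added to each CPM. The black points run from −1.30 for DUOX2 to −0.24 for DUOX1, and the intervals of DUOX2 and NOX1 end below 0 before any adjustment over genes.

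The makeup of the catalytic transcripts differed between libraries. Per kilobase of transcript, NOX1, NOX4, DUOX1 and DUOX2 together summed under mock to 10.4 (H) and 9.90 (Q) CPM per kilobase, and under H2O2 to 4.83 (H) and 6.99 (Q). NOX1 made up 57.8% and 55.7% of that sum in mock and 43.3% and 55.1% in H2O2. NOX4 made up 25.0% and 27.3% in mock and 45.8% and 30.6% in H2O2. In H2O2 library H its CPM per kilobase (2.21) was thus next to that of NOX1 (2.09). DUOX2 went from 15.9% and 15.7% to 9.01% and 12.4%, and DUOX1 stayed between 1.31% and 1.94%. The reads of DUOX2 stood to those of DUOX1 as 13.2 and 13.3 to 1 in mock and as 5.13 and 7.21 to 1 in H2O2. The dual oxidases are close relatives, and the treatment of reads that fit both is not stated in the labels or file headers. The shares rest on CPM divided by transcript length, and the deposited FPKM of the same models put NOX4 further below NOX1. In H2O2 library H, FPKM was 37.0 for NOX1, 18.9 for DUOX2, 7.74 for NOX4 and 3.41 for DUOX1. In mock library H these were 101, 64.2, 8.87 and 5.74. The reason for this difference was not tested, and no test was made of the shares and ratios.

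**Figure D3:**
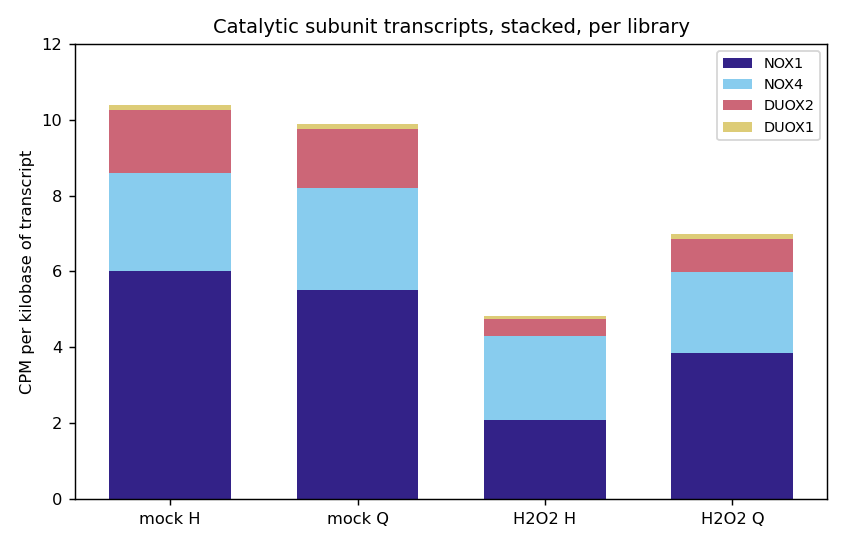
Stacked transcript levels of the catalytic subunits in each library, in CPM per kilobase of transcript. Both mock bars reach 9.90 or more, the H2O2 bars reach 4.83 and 6.99, and most of the difference lies in the NOX1 and DUOX2 segments.

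CYBA encodes the membrane subunit that NOX1 and NOX4 share, and was by far the most abundant member. It measured 204 CPM (H) and 206 CPM (Q) under mock treatment, and 148 CPM (H) and 150.1 CPM (Q) under H2O2. In TMM-scaled CPM the libraries of a group were nearly equal, and the groups stood clearly apart. The deposited FPKM lay further apart within a group, at 2428 (H) and 2738 (Q) under mock, against 1758 (H) and 2009 (Q) under H2O2. The means were 205 ± 1.22 and 149 ± 1.22 CPM, a log2 fold change of −0.46 (SE 0.18, interval −0.92 to 0.01), with an unadjusted p of 0.0537 and an adjusted p of 0.721 in edgeR, which draws the spread of each gene toward that of all genes. Without any 1 library the value stayed between −0.47 and −0.45. Per kilobase, CYBA stood under mock at 42.6 (H) and 46.8 (Q) times NOX1, and under H2O2 at 89.0 (H) and 48.9 (Q) times. Against NOX4 these ratios were 98.6 and 95.5 in mock and 84.2 and 88.1 in H2O2. The deposited FPKM gives other ratios, with 2428 for CYBA, 101 for NOX1 and 8.87 for NOX4 in mock library H.

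The cytosolic subunits of NOX1 lay apart by letter in both groups. NOXA1, the activator, measured 11.1 CPM (H) and 5.03 CPM (Q) under mock treatment, and 6.13 CPM (H) and 3.65 CPM (Q) under H2O2. Library H was the higher in both groups, and the groups overlapped. Its log2 fold change was −0.73 (SE 0.48; edgeR, adjusted p = 0.773) and was −0.04 without mock library H. NOXO1, the organiser that brings the complex to the membrane, measured 1.62 (H) and 2.34 CPM (Q) under mock, against 1.04 (H) and 2.20 CPM (Q) under H2O2, with library Q the higher in both groups. Its groups overlapped too, and the log2 fold change of −0.29 (SE 0.45; adjusted p = 0.884) was −0.0012 without mock library Q and 0.15 without H2O2 library H. The ratio of NOXA1 to NOXO1 per kilobase was therefore 4.69 and 4.04 in the libraries H of mock and H2O2, and 1.47 and 1.13 in the libraries Q. In the RefSeq table the whole span of NOXO1 lies inside that of TBL3, and the use of strand in counting was not given, so reads of the pair cannot be told apart with confidence. TBL3 measured 49.6 (H) and 52.8 CPM (Q) under mock, against 67.1 (H) and 52.1 CPM (Q) under H2O2.

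Both maturation factors were lowest in H2O2 library H, as DUOX2 was. DUOXA2 measured 4.69 CPM (H) and 3.93 CPM (Q) under mock treatment, and 1.36 CPM (H) and 3.24 CPM (Q) under H2O2. DUOXA1 measured 1.67 (H) and 1.91 CPM (Q) under mock, against 0.519 (H) and 1.41 CPM (Q) under H2O2. For both genes the groups did not overlap, and H2O2 library H stood far below the other 3 libraries. The log2 fold changes were −0.90 for DUOXA2 (SE 0.45; edgeR, adjusted p = 0.731) and −0.89 for DUOXA1 (SE 0.51; adjusted p = 0.755), and without H2O2 library H they were −0.41 and −0.34.

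Within the DUOX cluster, the partners of a back-to-back pair can be set side by side. The values are log2 ratios of H2O2 to mock with 0.1 added to each CPM, which draws the ratios of low levels toward 0. DUOX2 and DUOXA2, which share the interval with the TATAAA match, differed by −1.89 and −1.71 between the libraries H and by −0.84 and −0.27 between the libraries Q. DUOXA1 and DUOX1, which share the GC-rich interval, differed by −1.52 and −0.49 between the libraries H and by −0.41 and 0.03 between the libraries Q. DUOXA1 values thus lay nearer to those of DUOXA2, its neighbour at the other end, than to those of DUOX1. DUOXA1 and DUOXA2 run toward each other and their spans overlap by 1056 bases. Of the 6 DUOXA1 models 4 share 260 or 706 exon bases with DUOXA2, while the model used here shares 0. Another DUOXA1 model, which also shares 0, had 5, 27, 2 and 17 reads in the same library order, against 162, 231, 53 and 169 for the model used. The model that shares 706 bases had 161, 227, 50 and 163 reads, where DUOXA2 had 454, 476, 139 and 387. Without strand, DUOXA1 and DUOXA2 reads in the overlap cannot be told apart.

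**Figure D4:**
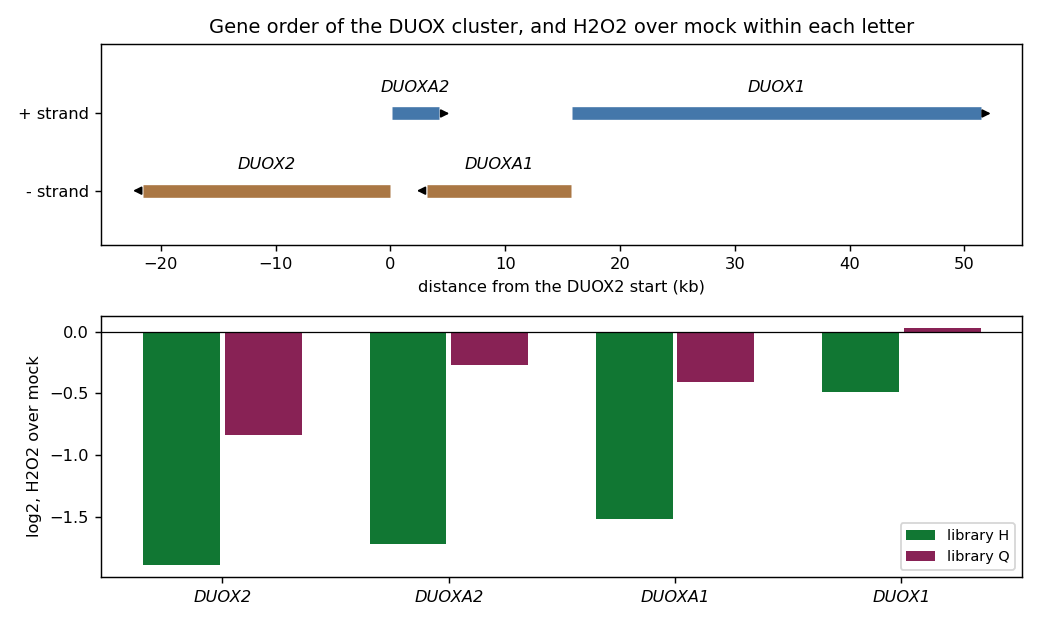
Upper panel, the DUOX cluster with each gene's strand and direction, in kilobases from the DUOX2 start. Lower panel, log2 of H2O2 over mock between the libraries H and between the libraries Q, with 0.1 added to each CPM. DUOX2, DUOXA2 and DUOXA1 lie between −1.89 and −1.52 for H, and DUOX1 lies at −0.49.

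The 3 nearest genes on each side of the cluster had log2 fold changes of −0.33 to 0.35. On the side of DUOX2, SORD, which encodes sorbitol dehydrogenase, measured 147 (H) and 145 CPM (Q) under mock, against 183 (H) and 184 CPM (Q) under H2O2 (log2 fold change 0.33, SE 0.18; edgeR, adjusted p = 0.744), TERB2 was at 0.35 (0.0915 without H2O2 library Q) and TRIM69 at 0.01 on the log2 scale. On the side of DUOX1, SHF had a log2 fold change of 0.18, the nucleoside transporter gene SLC28A2 one of −0.33, and GATM of creatine synthesis one of −0.18. None of these 6 passed the test. SORD and TERB2 were higher in both H2O2 libraries than in both mock libraries, which held for 18.1% of all genes, and SLC28A2 was lower in both, which held for 21.3%.

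Per kilobase of transcript and averaged over the 4 libraries, the members ranked from CYBA (222 CPM per kilobase) through NOX1 (4.37), NOXA1 (3.86), NOX4 (2.41), DUOXA2 (1.88), NOXO1 (1.57), DUOX2 (1.13) and DUOXA1 (0.821) to DUOX1 (0.124). On this scale CYBA at the top and DUOX1 at the bottom stood clear of every other member in all 4 libraries. The ranges over libraries of all other neighbours in that order overlapped, such as 2.09 to 6.01 for NOX1 and 2.17 to 6.64 for NOXA1. The deposited FPKM gave another order below CYBA. By FPKM, DUOX2 (18.9 to 73.5) lay above NOX4 (4.95 to 8.87). DUOX1 (3.41 to 6.99) lay above the DUOXA1 model used (0.611 to 2.87) in each library. The DUOXA1 models differed in FPKM, however. Another of them, with 601 reads in all against 615, had 6.42 (H) and 8.88 (Q) under mock, above DUOX1. Under H2O2 that model had 2.57 (H) and 5.92 (Q), below DUOX1. The reason for the differing orders was not tested.

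Of 9 other genes of the NADPH oxidase family 8 were tested, 0 passed in either direction, and their median log2 fold change was −0.26. Of these 8, 6 had a lower estimate under H2O2 and 2 a higher one. CYBB, the phagocyte oxidase, measured 0.186 (H) and 0.190 CPM (Q) under mock, against 0.0783 (H) and 0.117 CPM (Q) under H2O2 (log2 fold change −0.93, SE 0.55; edgeR, adjusted p = 0.758). RAC2, the GTPase of blood cells, had a log2 fold change of −0.68 and NOX5 one of −0.61, both with groups that overlapped. NOX5 rested on 3 to 10 reads per library, and its value was −0.0752 without H2O2 library H. RAC1, which NOX1 uses, measured 412 (H) and 409 CPM (Q) under mock, against 328 (H) and 406 CPM (Q) under H2O2 (−0.16, SE 0.22). NCF1, the phagocyte counterpart of NOXO1, has near-identical pseudogenes and is uncertain, with a value of −0.36 (SE 0.39).

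**Figure D5:**
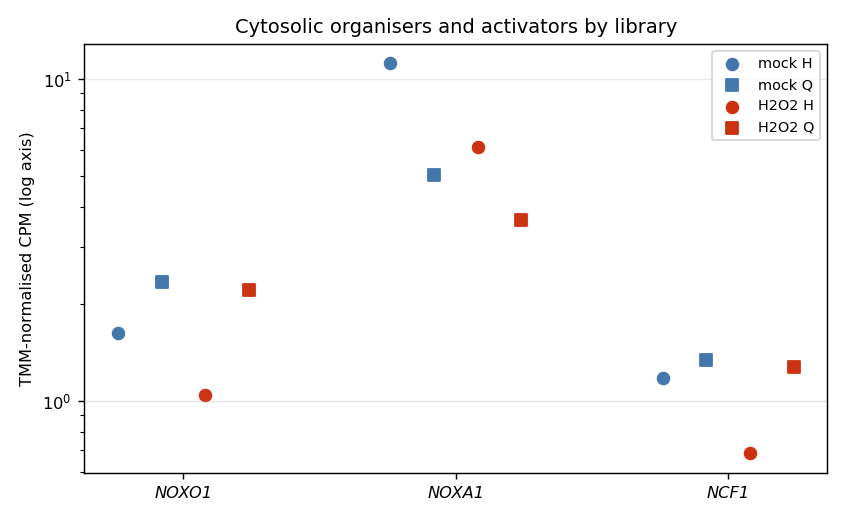
Levels of NOXO1, its phagocyte counterpart NCF1, and NOXA1 in the 4 libraries, in TMM-normalised CPM on a log axis; circles are libraries H and squares libraries Q. NOXA1 is higher in library H than in library Q of each treatment, and NOXO1 and NCF1 are higher in library Q.

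Genes that act with the oxidases were taken from gene lists by function, and 0 genes of any of them passed the edgeR test in either direction. The 8 organisers and regulators were all tested and had a median of −0.04. The largest differences among them were −0.19 in the kinase PRKCD, 0.18 in POLDIP2, an activator of NOX4, and −0.09 in the kinase SRC. Of 6 heme peroxidases that use H2O2, 3 were tested, at 0.258 CPM or less in every library, with EPX at −0.85, PXDN at −0.60 and LPO at 0.39. Of 13 other enzymes that make H2O2 or superoxide, 12 were tested, with a median of −0.01 and the largest values in the polyamine oxidase PAOX (0.67), the monoamine oxidase MAOA (0.57) and the disulfide oxidase ERO1A (−0.56). With single libraries left out, PAOX ran from 0.26 (without mock library Q) to 1.23 (without mock library H), and MAOA from 0.29 (without H2O2 library H) to 0.81 (without H2O2 library Q), while ERO1A turned to 0.37 without mock library H. Of 10 transcription factors named for NOX and DUOX promoters, all tested, the median was −0.18. CDX2, an intestinal factor, measured 236 CPM (H) and 41.2 CPM (Q) under mock treatment, and 81.3 CPM (H) and 47.7 CPM (Q) under H2O2 (log2 fold change −1.10, SE 0.80; edgeR, adjusted p = 0.787), and its value was 0.64 without mock library H. SMAD3, of TGF-beta signalling, measured 134 (H) and 144 CPM (Q) under mock, against 66.2 (H) and 97.2 CPM (Q) under H2O2 (log2 fold change −0.77, SE 0.25; edgeR, adjusted p = 0.721), and the thyroid and lung factor NKX2-1 had a value of −0.69 at levels of 0.421 to 0.809 CPM.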

How the data were processed

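Total RNA went into TruSeq RNA libraries (Illumina), per the labels' protocols. The submitters' processing notes name TopHat 1.3.3, Bowtie 0.12.2, Cuffdiff and CASAVA, and the builds hg19, GRCh37 and mm8 without saying what each was for. Which program counted reads, on which annotation, and whether it used strand is not given in the sources used here. Each deposited table lists 58146 transcript models with their read count and FPKM, per the file headers. The deposited counts repeat over the isoforms of a gene, and with 1 model per gene they still summed to 103851326 to 113082498, above the mapped mates, so a count overstates its own precision. The deposited alignment summaries gave the mapped mates.

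For each gene symbol the model with the most reads was kept, with at least 10 reads in at least 2 libraries. The treated and mock groups were compared in edgeR 4.0.16 (R 4.3.3) with its quasi-likelihood test, two-sided, with TMM factors of 0.932, 1.12, 0.903 and 1.06 (mock H, mock Q, H2O2 H, H2O2 Q), treatment as the sole term and 2 residual degrees of freedom. The common biological coefficient of variation was 0.309. The script was tested on simulated counts. Ratios between libraries of a letter used CPM plus 0.1. Lengths came from GENCODE v29 by RefSeq accession, and sequences and gene order from RefSeq tables of GRCh38.p14. Levels per kilobase are CPM divided by that length, and ratios between genes can differ from those of the deposited FPKM. The upstream window is that of the gene's start, or for NOX4 the first of 3 listed. DESeq2 1.42.0 and limma 3.58.1 on log2 of the deposited FPKM plus 1 or 0.1 served as alternatives.

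The members and gene lists were chosen with earlier results of these data known. Of each list, the 3 genes of largest fold change and those needed to read a member were named, with the 3 nearest genes on each side of the DUOX cluster that have a row in the tables, and the 2 genes nearest in pattern to NOX1 and to DUOX2. TBL3 was named for its overlap with NOXO1. 1 gene of these lists is not reported here.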

Additional observations from a re-analysis of the deposited data

How the results depend on the processing

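All 9 members were lower in H2O2 in the main comparison and in 12 of 13 alternatives. Without H2O2 library H 8 were lower, and NOXO1 turned to 0.15. No member passed 5% after adjustment in any alternative, and the lowest adjusted p of any was 0.114, for DUOX2 with the letter as a block. The median of the 9 was −0.73. It was −0.46 with limma on log2(FPKM + 1), and without each library in turn it ran from −0.93 (without H2O2 library Q) to −0.41 (without H2O2 library H). Over all genes 0 passed 5% in the main comparison, with 1899 at an unadjusted p under 5%. DESeq2 called 138, and 9 passed with no filter on low counts, while leaving out single libraries gave 0 to 13, the latter without mock library Q; the cause was not tested. With the letter as a replicate block 42 genes and 0 members passed. In that fit 6 of the 9 members had an unadjusted p under 5%, as did 5223 of all 27702 genes. The letter deviations of mock and H2O2 correlated at 0.53 over genes, a hint from the data and not from the design, so the pairing stayed an alternative.

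Signs also changed among the named genes. TRIM69 was −0.0635 with no scaling factor, −0.0064 with the FPKM filter and −0.0097 with limma on log2(FPKM + 1). With single libraries left out, the ranges were −0.53 to 0.65 for TRIM69, −1.88 to 0.64 for CDX2, −1.12 to 0.37 for ERO1A, −0.58 to 0.14 for GATM, −0.15 to 1.26 for LPO, −0.87 to 0.016 for NCF1, −0.93 to 0.15 for NOXO1, −0.50 to 0.10 for PRKCD, −1.61 to 0.0913 for RAC2, −0.28 to 0.84 for SHF and −0.21 to 0.0313 for SRC. Among the members, depth was lowest for DUOX1, with 55 to 91 reads per library, and for DUOXA1 in H2O2 library H, with 53. Of the other named genes LPO had 1 to 18 reads, NOX5 3 to 10, CYBB 8 to 23 and EPX 9 to 21. With so few reads, LPO and NOX5 were not tested in every fit that left out a library, so the LPO range above is incomplete.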

Other observations

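The genes whose pattern over the 4 libraries lay nearest to that of NOX1, among 18278 others with a mean of at least 1 CPM, were CASP5, an inflammatory caspase, and LOC100862671. CASP5 measured 1.92 CPM (H) and 1.77 CPM (Q) under mock treatment, and 0.558 CPM (H) and 1.16 CPM (Q) under H2O2, and LOC100862671 lay at 10.1 and 9.40 against 3.59 and 6.06 CPM. The distance of their centred log2 CPM from NOX1 was 0.10 for both. Nearest to DUOX2 were a long intergenic model of HOTTIP, the noncoding RNA at the end of the HOXA cluster, at 1.77 and 1.51 against 0.421 and 0.878 CPM (distance 0.13), and KIAA0319, at 3.03 and 2.72 against 0.686 and 1.64 CPM (distance 0.14). All 4 had their lowest level in H2O2 library H, as NOX1 and DUOX2 did. They were chosen for that likeness over only 4 libraries, so it is a description, with no test.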
